A study of Mus musculus with 8 samples.

Results

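Peroxiredoxins, glutathione peroxidases and catalase are the enzymes that cells use to remove hydrogen peroxide and organic peroxides, and 10 of them (Gpx1, Gpx3, Gpx4, Prdx1, Prdx2, Prdx3, Prdx4, Prdx5, Prdx6 and Cat) were followed in tumor-associated macrophages (TAMs). They form a list of names, and all 10 were found among the 23413 genes of the count table. TAMs came from 8 male C57BL/6 mice that carried B16F10 melanoma, a transplantable mouse tumor line, under the skin of the flank. The mice were 8 to 10 weeks old when the tumor cells were injected. The DMSO group (2 mice) received the vehicle, the I.P. group (4 mice) received thiostrepton, a thiopeptide antibiotic, into the peritoneum, and the S.C. group (2 mice, named IS in the labels) received it at 20 mg/kg beside the tumor. Dosing was on days 6 and 12. On day 18 the TAMs were taken from each tumor by a sort for CD45+F4/80+CD11b+Gr-1− cells and made into 1 RNA-seq library per mouse. Which of the study's I.P. doses these 4 mice received is not given in the sources used here, and neither is the injection route of the vehicle. The paper describes the S.C. dose as lower than its I.P. doses, so that route and dose cannot be told apart between the treated groups.

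Glutathione peroxidases reduce peroxides with electrons from glutathione, which glutathione reductase recharges from NADPH. Peroxiredoxins use a reactive cysteine instead, and most of them are recharged by thioredoxin, while sulfiredoxin repairs those that have been overoxidized. Catalase splits hydrogen peroxide in peroxisomes without an electron donor. In macrophages, which produce peroxide through the NADPH oxidase, these enzymes limit oxidative damage and tune peroxide signals.

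Gpx1, Gpx3 and Gpx4 are selenoproteins. In them the catalytic residue is selenocysteine, which is inserted at a TGA codon that would otherwise end translation. The coding sequences were searched for this codon because it sets the 3 glutathione peroxidases apart from the other enzymes, whose reactive group is a cysteine or a heme. Each of the 3 coding sequences held 1 in-frame TGA before its stop codon, and the other 7 held 0. The surrounding bases are shown 5′ to 3′ with the TGA in capitals, read from GRCm38, the assembly of mm10, all on the + strand and within a single coding exon.
Gpx1, codon 47, chr9:108339439-108339465: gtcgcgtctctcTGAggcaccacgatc
Gpx3, codon 73, chr11:54907244-54907270: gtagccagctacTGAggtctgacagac
Gpx4, codon 73, chr10:80054725-80054751: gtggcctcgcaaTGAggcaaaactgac

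The libraries held 14127506 to 17577466 counts on genes, of which the 10 enzymes took 0.453% to 0.749%. The smallest count of any of them in any mouse was 1013, so that counting error was mostly small beside the spread between mice. It was not for Gpx3 in the S.C. mice, where the SD was only 1.91% of the mean. Levels are given as CPM, counts scaled by edgeR's TMM method to a common library size. I.P. mouse 1 and both S.C. mice stood apart, with an interquartile range of log2 deviations from the median library of 0.729 to 0.878 against 0.236 to 0.508 in the other 5. Markers of macrophages summed to between 26889 and 39833 CPM in all mice, and Emr1, which encodes F4/80, lay between 316 and 1012 CPM. Markers of adipocytes and fibroblasts summed to at most 1.26 CPM. The 8 neutrophil markers summed to 258 and 415 CPM in the S.C. mice against 76.6 to 169.6 CPM in the other groups. Markers of T or NK cells summed to 25.1 to 34.6 CPM in the S.C. mice against 0.489 to 13.8 CPM, those of B cells to 25.3 to 29.2 against 9.06 to 20.6 CPM, and those of dendritic cells to 9.39 to 13.7 against 1.67 to 7.02 CPM. The part of these cells in the results below was not tested. In bulk RNA of sorted cells, fewer cells of a type and less RNA per cell cannot be told apart.

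Prdx1, a cytosolic peroxiredoxin, was the most abundant of the 10 transcripts, and Gpx1, the main cytosolic glutathione peroxidase, followed it. Per kilobase of transcript, Prdx1 stood at 1278 ± 322 CPM per kb (SD, n = 2) in DMSO mice and Gpx1 at 797 ± 125. Gpx4 was next at 227 CPM per kb (199.8 and 253.5 in the 2 mice). Prdx4, Prdx2 and Prdx5 lay close together, at 132 ± 18.9, 131 ± 22.3 and 126 ± 16.2 CPM per kb, and did not differ beyond their spread. Prdx3 (89.8 ± 13.5), Prdx6 (80.6 ± 28.8), Gpx3 (61.7 ± 13.3) and Cat (61.4 ± 4.94) formed the low end, in which neighbours also lay within their spread. Prdx1 was above Gpx1 per kilobase in 7 of the 8 mice. The exception was I.P. mouse 1, in which Gpx1 reached 1718 CPM per kb and Prdx1 was at 1073. In CPM, before division by length, Prdx1 was above Gpx1 in that mouse too (2462 against 1841). The lengths are those of 1 transcript taken for each gene, and which transcripts were expressed was not tested.

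Prdx1 made up 51.7% to 61.5% of the CPM of the 10 enzymes in 7 mice and 40.1% in I.P. mouse 1. The 3 glutathione peroxidases together amounted to 72.9 CPM per 100 CPM of peroxiredoxins in that mouse, and to between 29.3 and 44.0 in the others. The balance of the 2 families was thus similar in most libraries and was shifted in 1 of them, which was among those that stood apart.

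**Figure D1:**
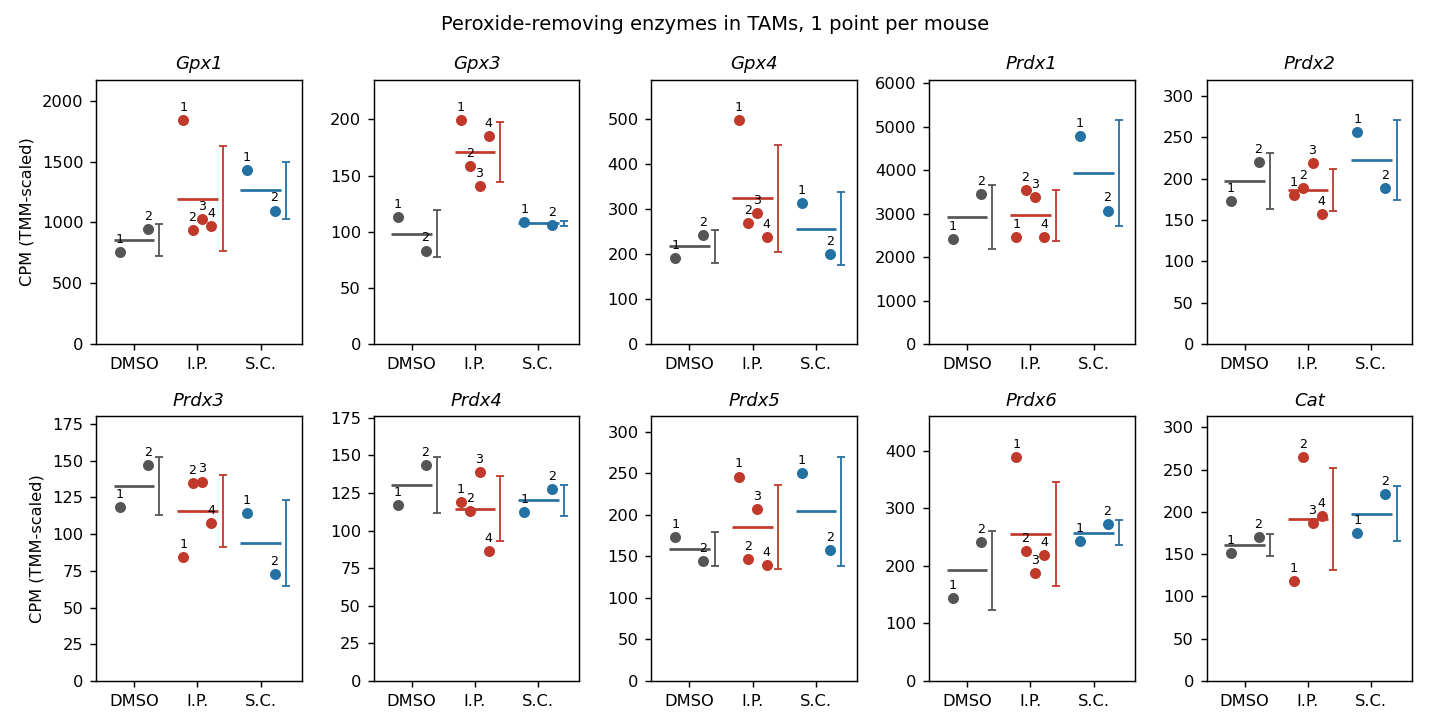
CPM of the 10 enzymes (y axes from 0, a scale for each gene) in TAMs of DMSO, I.P. and S.C. mice. Points are mice with their number, horizontal bars group means, and error bars ± SD. The 4 I.P. mice lie above both DMSO mice only for Gpx3, and I.P. mouse 1 is high for Gpx1, Gpx4 and Prdx6.

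The first comparison asked how I.P. thiostrepton altered these enzymes in TAMs. Gpx3, the secreted glutathione peroxidase, was at 113 CPM in DMSO mouse 1 and 83.3 CPM in DMSO mouse 2, and at 199, 158, 140.5 and 185 CPM in I.P. mice 1 to 4. All 4 I.P. mice were above both DMSO mice, and the lowest of them was 140.5 CPM against 113 CPM for the higher control. The means were 98.3 ± 21.2 CPM (SD, n = 2) and 171 ± 26.4 CPM (SD, n = 4), a fold of 1.73 with a 95% confidence interval of 1.17 to 2.56. The log2 fold change was 0.79 (SE 0.25), with an unadjusted P of 0.0116 and an adjusted p of 0.98 by edgeR's quasi-likelihood test. By unadjusted P, Gpx3 ranked 83 among the 12174 genes tested. It remained under 2-fold, and the change did not pass correction over all genes. Without DMSO mouse 2 the log2 fold change was 0.59 (unadjusted P = 0.119, edgeR), and without DMSO mouse 1 it was 1.03 (unadjusted P = 0.0178, edgeR), which is past 2-fold.

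Genes were called when they met both limits of the study, 2-fold in size and 0.05 in unadjusted P. In I.P. against DMSO mice, 0 of the 10 enzymes were called, where 2% of all genes tested were. At an unadjusted P under 0.05 alone, 1 of the 10 (Gpx3) passed, where 3.43% of all genes did. At an adjusted p under 0.05, edgeR's quasi-likelihood test gave 0 of the 10 and 0% of all genes. DESeq2 gave 0 of the 10 and 19 of all genes, and edgeR's likelihood ratio test 0 of the 10 and 10 of all genes. With so few genes past over all, 0 of the 10 is no result about the enzymes. Groups did not overlap for 1 of the 10 enzymes, Gpx3, and for 14.2% of all genes. The median log2 fold change was 0.23 over the 10 enzymes and 0.02 over all genes, and 7 of the 10 were above 0. Without I.P. mouse 1 the median was 0.11, and without DMSO mouse 1 it was 0.13.

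Gpx1 was at 760.3 and 949 CPM in the DMSO mice, and at 1841, 938, 1028.5 and 975 CPM in I.P. mice 1 to 4. The mouse at 1841 CPM was far above the others, and I.P. mouse 2 lay between the DMSO mice. The log2 fold change was 0.48 (95% confidence interval −0.27 to 1.23, unadjusted P = 0.182, edgeR), and 0.19 without I.P. mouse 1. Gpx4, which reduces lipid peroxides within membranes and protects cells from ferroptosis, was at 192 and 243 CPM in the DMSO mice and at 498, 269, 291 and 237 CPM in I.P. mice 1 to 4. Again I.P. mouse 1 was the highest, and I.P. mouse 4 lay between the controls. Its log2 fold change was 0.57 (95% confidence interval −0.19 to 1.33, unadjusted P = 0.124, edgeR), and 0.29 without I.P. mouse 1.

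None of the peroxiredoxins passed the test in I.P. mice. Prdx1 was at 2410.5 and 3454 CPM in DMSO mice and at 2462, 3555, 3379 and 2463 CPM in I.P. mice 1 to 4. The groups overlapped over nearly their whole range, and the log2 fold change was 0.01, with a 95% confidence interval of −0.62 to 0.65 that still holds changes of up to 1.57-fold. Prdx2, a cytosolic peroxiredoxin that is abundant in red blood cells, had means of 197 ± 33.4 CPM (SD, n = 2) and 186 ± 25.8 CPM (SD, n = 4). Prdx3, the mitochondrial member, was at 119 and 147 CPM in DMSO mice and at 84.8, 135, 136 and 107 CPM in I.P. mice. Prdx4, which works in the endoplasmic reticulum, was at 117 and 144 CPM in DMSO mice and at 119, 113, 139 and 86.5 CPM in I.P. mice. For both genes 2 of the 4 I.P. mice lay below the controls, and the log2 fold changes were −0.20 and −0.19.

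Prdx5, found in mitochondria, peroxisomes and cytosol, was at 173 and 144 CPM in DMSO mice and at 246, 146, 208 and 140.2 CPM in I.P. mice. Prdx6, which has a single reactive cysteine and takes its electrons from glutathione, was at 144 and 241 CPM in DMSO mice and at 389.7, 226, 188 and 219 CPM in I.P. mice. For Prdx6 only I.P. mouse 1 exceeded the controls. Cat was at 151 and 169.6 CPM in DMSO mice and at 118, 265, 187 and 195 CPM in I.P. mice, so that I.P. mouse 1 was the lowest of all for catalase and I.P. mouse 2 the highest. The unadjusted P was 0.472 for Prdx5, 0.282 for Prdx6 and 0.453 for Cat (edgeR).

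**Figure D2:**
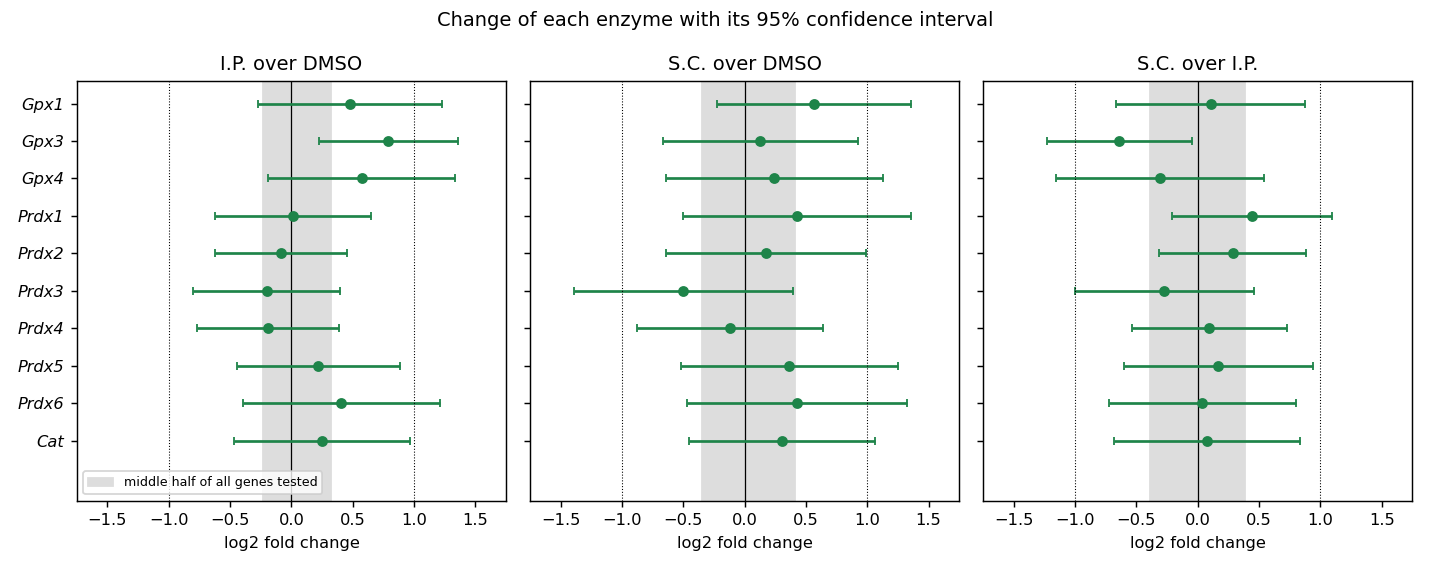
Log2 fold change (x axis) of each enzyme in the 3 comparisons, with the 95% confidence interval from edgeR's fit as bars. Dotted lines mark 2-fold changes, and the grey band holds the middle 50% of all genes tested. The intervals exclude 0 only for Gpx3, in I.P. against DMSO mice (0.23 to 1.35) and in S.C. against I.P. mice (−1.23 to −0.05), before any correction for the number of genes.

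The second comparison asked the same of thiostrepton injected beside the tumor, with the same 2 DMSO mice as controls. Here Gpx3 was at 109 and 106 CPM, between the DMSO mice, with a log2 fold change of 0.13 (95% confidence interval −0.66 to 0.92, unadjusted P = 0.701, edgeR). In S.C. against DMSO mice 0 of the 10 enzymes were called by the criterion, where 5.06% of all genes were. At an unadjusted P under 0.05 it was 0 of the 10 against 5.41%. At an adjusted p under 0.05, edgeR's quasi-likelihood test again gave 0 of the 10 and 0% of all genes. DESeq2 gave 0 of the 10 and 107 of all genes, and the likelihood ratio test 0 of the 10 and 179 of all genes. The median log2 fold change of the 10 was 0.27, against 0.02 over all genes, and without S.C. mouse 1 it was 0.02.

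In the S.C. mice the groups did not overlap for 4 of the 10 enzymes, where this was so for 34.4% of all genes. Gpx1 was at 1428 and 1098 CPM against 760.3 and 949 CPM in the controls, with a log2 fold change of 0.57 (unadjusted P = 0.128, edgeR). Prdx6 was at 243 and 273 CPM against 144 and 241 CPM, and Cat at 175 and 221 CPM against 151 and 169.6 CPM. For Prdx6 and Cat the lower S.C. mouse exceeded the higher control by a small margin. Prdx3 was lower, at 114 and 73.2 CPM against 119 and 147 CPM, with a log2 fold change of −0.50 (unadjusted P = 0.218, edgeR). Without S.C. mouse 1, the log2 fold change of Prdx3 was −0.87 and its unadjusted P passed 0.05 (edgeR), with the remaining S.C. mouse assumed to vary like the controls. In that setting 2989 genes were called in place of 591, so that this says nothing of Prdx3 in particular.

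For the other enzymes the S.C. mice overlapped with the controls. Prdx1 was at 4801 CPM in S.C. mouse 1, the highest of all 8 mice, and at 3077 CPM in S.C. mouse 2, between the DMSO mice. Gpx4 was at 314 and 199.6 CPM, Prdx5 at 250.8 and 158 CPM, and Prdx2 at 256 and 188 CPM. In each of these S.C. mouse 1 exceeded both controls and S.C. mouse 2 lay between them. Prdx4 was at 113 and 128 CPM, and its log2 fold change was −0.12 with a 95% confidence interval of −0.88 to 0.64.

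The routes were then compared directly. Gpx3 was lower in both S.C. mice, at 109 and 106 CPM, than in all 4 I.P. mice, at 140.5 to 199 CPM. The log2 difference of S.C. from I.P. was −0.64 (SE 0.26), with an unadjusted P of 0.0365 and an adjusted p of 0.545 by edgeR's quasi-likelihood test. Leaving out any 1 of I.P. mouse 2, I.P. mouse 4, S.C. mouse 1 and S.C. mouse 2 took the unadjusted P past 0.05, and the log2 difference then lay between −0.68 and −0.61 (edgeR). Of the 10 enzymes, 0 were called by the criterion, where 7.05% of all genes were, and 1 (Gpx3) had an unadjusted P under 0.05, where 8.59% of all genes did. Non-overlap was likewise seen for 1 of the 10 and for 18.5% of all genes. At an adjusted p under 0.05, edgeR's quasi-likelihood test gave 0 of the 10 and 0% of all genes. DESeq2 gave 0 of the 10 and 234 of all genes, and the likelihood ratio test 0 of the 10 and 265 of all genes. The widest gap among the peroxiredoxins was that of Prdx1, whose log2 difference was 0.44 (95% confidence interval −0.21 to 1.09).

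Several of these values moved with properties of the libraries. In I.P. mouse 1 the log2 deviation of a gene from its mean over the 8 mice rose with the GC content of its transcript (Spearman 0.36 across 9285 genes, which are not independent replicates). The 20% of genes richest in GC had a median deviation of 0.34 in that mouse and the poorest 20% one of −0.33. Gpx4 (58.8% GC), Prdx5 (58.3%) and Gpx1 (57.2%) were all above the 87th percentile of transcripts for GC, and Gpx3 (56.0%) was at the 82nd. Transcript length moved with the values in S.C. mouse 1, with a median deviation of 0.30 for the shortest 20% of genes and −0.35 for the longest. In I.P. mouse 4 and S.C. mouse 2 the order was the opposite. With each library's dependence on GC and length taken out as an offset, an alternative chosen after the data were seen, the log2 fold changes in I.P. mice were 0.37 for Gpx4, 0.32 for Gpx1 and 0.05 for Prdx5, against 0.57, 0.48 and 0.22 without the offset. Gpx3 was at 0.71, against 0.79 without it, with an unadjusted P of 0.0105 (edgeR).

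**Figure D3:**
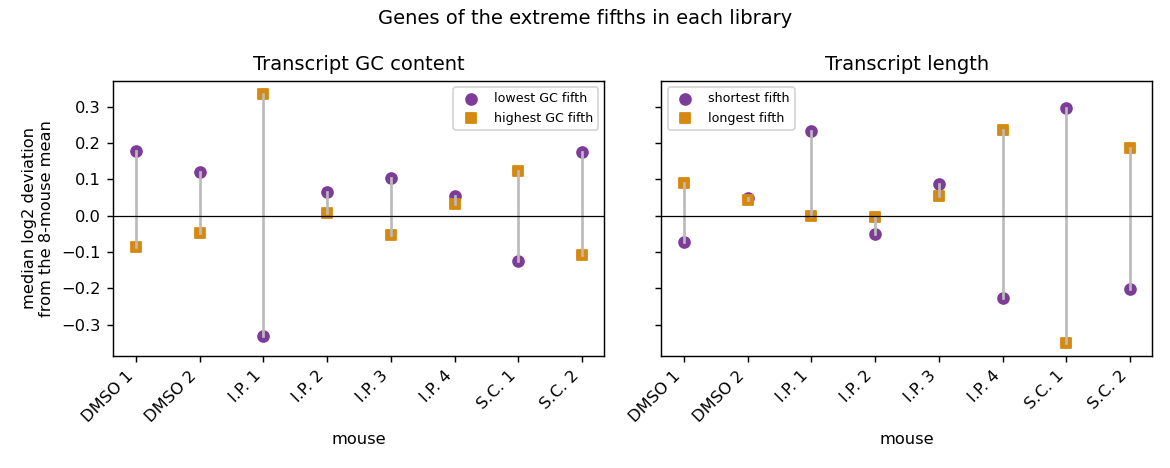
Median log2 deviation of genes from their mean over the 8 mice (y axis) in each mouse (x axis), for the 20% of genes lowest and highest in transcript GC content (left) and length (right). The points lie farthest apart for GC in I.P. mouse 1 (−0.33 and 0.34) and for length in S.C. mouse 1 (0.30 and −0.35).

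Some transcripts share sequence with neighbours or copies. Prdx2 shares 173 exonic bases with Junb on the opposite strand, and whether counting used strand was not stated. Junb, a subunit of the AP-1 transcription factor, was at 1577 CPM in I.P. mouse 1 and at 1082 and 1466 CPM in the S.C. mice, against 141 to 298 CPM in the other 5 mice. In the same 3 mice Prdx2 was at 180.3, 256 and 188 CPM, against 157 to 221 CPM in the others, and the part of Junb reads in these counts was not tested. Prdx5 shares 409 exonic bases with Trmt112, which was at 60.3 to 99.5 CPM and was likewise highest in I.P. mouse 1. Gpx4, Prdx1 and Prdx2 have near-identical copies elsewhere in the genome (up to 99.7%, 98.3% and 96.3% identity) that are not genes of the count table, so that their levels are uncertain by the reads of those copies. Erythroid markers summed to 568 CPM in S.C. mouse 1 and 400.3 CPM in DMSO mouse 2, and to at most 89.4 CPM in the other 6. Prdx2 was at 256 and 221 CPM in these 2 mice, but also at 219 CPM in I.P. mouse 3, where the erythroid markers summed to 27.8 CPM, and the part of red blood cell RNA in its level was not tested. Melanoma markers summed to 2981 CPM in S.C. mouse 1, where Prdx1 was also highest. They summed to 1790.4 CPM in I.P. mouse 4, where Prdx1 was among the lowest. In the other mice they summed to between 449 and 1036 CPM, and the part of tumor RNA in the level of Prdx1 was not tested.

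Across the 8 mice some enzymes varied together. The log2 CPM of Prdx1 and Prdx2 had a Pearson correlation of 0.90, those of Gpx1 and Gpx4 one of 0.87, and those of Gpx1 and Prdx6 one of 0.86. The correlations of Gpx3 were 0.55 with Gpx4 and 0.36 with Gpx1, and those with Prdx2 and Prdx4 were −0.57 and −0.59. These are descriptions over 8 points that share the treatment groups and the library properties given above.

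The genes most like Gpx3 over the 8 mice, among 9324 compared, were Ddit3 (Pearson correlation of log2 CPM 0.95) and Osgin1 (0.93). Ddit3, which encodes the stress transcription factor CHOP, was at 42.8 and 36.6 CPM in DMSO mice, at 119, 65.8, 77.7 and 101 CPM in I.P. mice 1 to 4, and at 53.8 and 45.4 CPM in S.C. mice. Osgin1, an oxidative stress response gene, was at 12.1 and 13.2 CPM in DMSO mice, at 56.6, 29.5, 24.2 and 37.5 CPM in I.P. mice, and at 12.3 and 14.6 CPM in S.C. mice. In both, as in Gpx3, I.P. mice 1 and 4 were the highest and the S.C. mice lay below every I.P. mouse. Gpx1 was most like Pde1b (0.99) and the elongation factor Eef2 (0.99), both of which peaked in I.P. mouse 1, as Gpx1 did. As these genes were picked for their likeness to Gpx3 or Gpx1, the shared order of the mice follows from the choice.

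The genes that supply these enzymes with reducing power were examined as lists. These lists were chosen with earlier results of these data known, so that the share past a test is no result about them. Of 14 genes tested for glutathione synthesis and recycling, 5 had an unadjusted P under 0.05 in I.P. mice, where 3.43% of all genes did, and all 5 were higher (edgeR). Chac1, which degrades glutathione, was at 2.04 and 3.06 CPM in DMSO mice and at 12.3, 9.97, 8.74 and 13.4 CPM in I.P. mice, with a log2 fold change of 2.11 (SE 0.39, unadjusted P = 0.000493, adjusted p = 0.98, edgeR). Gsr, the glutathione reductase, was at 52.4 and 64.3 CPM in DMSO mice and at 121, 90.7, 72.1 and 97.0 CPM in I.P. mice, with a log2 fold change of 0.70 (unadjusted P = 0.0274, edgeR). The other 3 were Slc7a11 and Slc3a2, the subunits of the cystine importer, and Gclm, a subunit of the enzyme that starts glutathione synthesis, with log2 fold changes of 1.67, 0.56 and 0.73. Slc3a2 was singled out after its values were seen. Slc7a11 was at 7.69 and 9.24 CPM in DMSO mice and at 60.9 CPM in I.P. mouse 1 and 19.7 CPM or less in the other 3 I.P. mice, and without I.P. mouse 1 its log2 fold change was 0.89. The list thus holds genes that make and recharge glutathione and 1 that breaks it down, and its median log2 fold change was 0.04, against 0.02 over all genes. The 5 genes did not overlap between groups, as 14.2% of all genes did not, and all had an adjusted p of 0.98 (edgeR). The count was 1 without DMSO mouse 1, 2 without DMSO mouse 2 and 3 without I.P. mouse 2, and 2 with a block for the mouse number, and Chac1 was among them each time.

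In the S.C. mice, where 5.41% of all genes had an unadjusted P under 0.05, 1 of the 14 did. This was Slc7a11, at 27.2 and 43.0 CPM against 7.69 and 9.24 CPM in DMSO mice, with a log2 fold change of 2.05 (SE 0.47, unadjusted P = 0.00521, adjusted p = 0.747, edgeR), and 0 of 15 passed without DMSO mouse 1. Without S.C. mouse 1, or without S.C. mouse 2, the count rose, with genes in both directions. As the number of genes called over all genes rose in these fits too, this says nothing of the list. Gclm was at 128 and 92.7 CPM, against 56.0 and 92.2 CPM in the controls. Chac1 was at 3.43 CPM in S.C. mouse 1 and at 0.217 CPM, 3 counts, in S.C. mouse 2.

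Of 12 genes tested in the thioredoxin system, 2 had an unadjusted P under 0.05 in I.P. mice, where 3.43% of all genes did. Both were higher (edgeR). Sesn2, a sestrin that acts in stress and nutrient signaling, was at 16.9 and 9.35 CPM in DMSO mice and at 46.7, 24.5, 19.4 and 42.3 CPM in I.P. mice (log2 fold change 1.33, unadjusted P = 0.0148, edgeR). Srxn1, the sulfiredoxin that repairs overoxidized peroxiredoxins, was at 108 and 133 CPM in DMSO mice and at 187, 186, 132.7 and 226 CPM in I.P. mice (log2 fold change 0.59, unadjusted P = 0.0494, edgeR). Srxn1 did not pass with the gene filter dropped, with scaling by library size only or by the likelihood ratio test. Nor did it pass with the 3 groups in 1 fit or with a block for the mouse number. It passed with DESeq2, with RLE scaling, with a filter of 1 CPM in 2 mice and with the GC and length offset. In the S.C. mice, where 5.41% of all genes had an unadjusted P under 0.05, 1 of 11 did. This was Sesn1, at 46.7 and 73.8 CPM against 119 and 124 CPM (log2 fold change −1.01, unadjusted P = 0.0315, edgeR). Sesn1 was also below both DMSO mice in all I.P. mice, at 22.8, 102, 79.0 and 61.4 CPM, where 14.2% of all genes did not overlap. It did not pass there in the main fit, but did with a block for the mouse number and without I.P. mouse 1 or I.P. mouse 2. The median log2 fold change of the list was 0.04 in I.P. mice and 0.07 in S.C. mice. In I.P. mice 1 gene remained past the test without DMSO mouse 1, Sesn2, and 0 without DMSO mouse 2, and in S.C. mice 0 did without either DMSO mouse. Without S.C. mouse 1, or without S.C. mouse 2, the count in S.C. mice rose. The number of genes called over all genes also rose in these fits, so that this says nothing of the list.

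**Figure D4:**
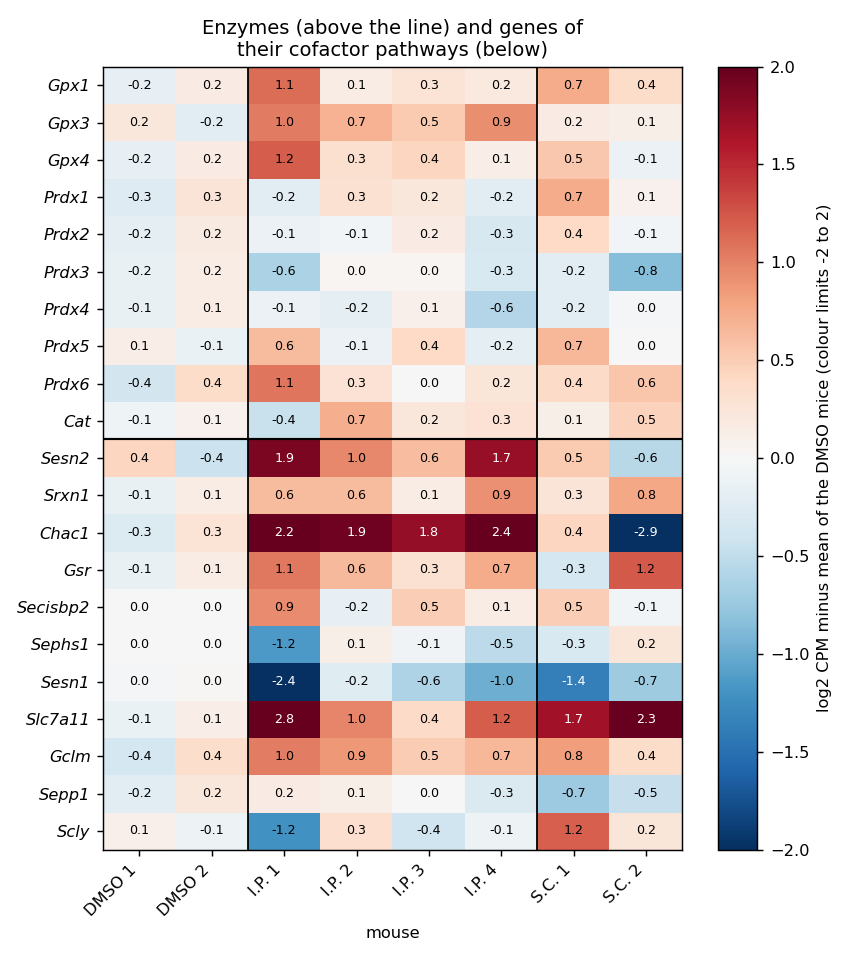
Log2 CPM minus the mean of the DMSO mice in each mouse (columns) for the 10 enzymes (above the line) and genes of the thioredoxin, glutathione and selenoprotein lists (below). Colour runs from blue (lower) to red (higher). Gpx3 is above the DMSO mean in all I.P. mice, by 0.5 to 1.0, as are Chac1 and Sesn2, by larger amounts, while the S.C. mice lie within 0.2 of the DMSO mean for Gpx3.

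The remaining lists gave at most 2 genes past the test in either route against DMSO. Over all genes, 3.43% passed it in I.P. mice and 5.41% in S.C. mice. Of 10 genes tested for selenoprotein synthesis and selenium supply, which the 3 glutathione peroxidases depend on, 0 had an unadjusted P under 0.05 in either route against DMSO (edgeR). Sepp1, the selenium carrier, was at 2024 to 2775 CPM in DMSO mice, 1944 to 2662 CPM in I.P. mice and 1427 and 1723 CPM in S.C. mice. Among 13 suppliers of NADPH tested, Taldo1, of the pentose phosphate pathway, was higher (log2 fold change 0.52, unadjusted P = 0.0432, edgeR) and the malic enzyme Me2 lower (−0.93, unadjusted P = 0.0303, edgeR) in I.P. mice, and 0 passed in S.C. mice. Of 15 glutathione S-transferases, 1 passed in I.P. mice (Gstm5, 0.79, unadjusted P = 0.0382, edgeR) and 0 in S.C. mice. Of the dismutases and peroxide-producing oxidases 0 of 19 passed in I.P. mice and 0 of 17 in S.C. mice. Of 12 peroxisome import genes, through which catalase reaches its compartment, Pex13 passed in I.P. mice (0.52, unadjusted P = 0.0406, edgeR) and 0 in S.C. mice. Gpx7 and Gpx8, the remaining glutathione peroxidases with enough counts to be tested, were each at or below 8.76 CPM in every mouse and did not pass in either route.

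Promoters of 9 of the 10 enzymes were found in a RefSeq table (GRCm38.p6, 250 bases before to 50 after the start). The core of the antioxidant response element, TGACNNNGC on either strand, was present in 1 of the 9, that of Prdx1, 133 bases before the start, and in 12.4% of all 32851 promoters of that length. The Gpx3 window did not hold these letters.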

How the data were processed

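RNA-seq counts of TAMs from 8 mice were used, 1 library per mouse, grouped by the treatment in the labels. The authors deposited whole-number counts per gene symbol without normalization. The paper names bowtie2 and RSEM with mm10, and the submitters' processing notes name TopHat2 and edgeR. Tests used edgeR 4.0.16 and DESeq2 1.42.0 under R 4.3.3. Each pair of groups was fitted alone: genes were kept by filterByExpr (minimum count 10, total 15), scaled by TMM and tested by two-sided quasi-likelihood, with Benjamini-Hochberg adjustment over all genes tested. Log2 CPM used a prior count of 2. The enzymes and gene lists were chosen with earlier results of these data known. Named list genes are the 2 with the smallest unadjusted P per list and route at a mean of at least 5 CPM, and for likeness the 2 highest correlations per enzyme. Transcripts, GC content and lengths are from GENCODE M21, in which 98.6% of symbols were found. Copies were sought with blastn 2.17.0 (at least 90% identity over 200 bases). No block was used, because the study names no covariate. Same-numbered mice correlated between −0.19 and 0.17 in their deviations from group means. In a group of 2 mice these deviations mirror each other, so that this does not settle whether mice were paired. The fit was tested on simulated data, where a limit set for the share of 2-fold changes with the right sign was narrowly missed and was replaced by a limit on their median size. P values set a change against the spread between these mice, which the fits estimate partly from the other genes.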

Additional observations from a re-analysis of the deposited data

Results flagged for a closer look

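Among the 4 I.P. mice, Gpx1 in I.P. mouse 1, at 1841 CPM, lay farther from the other 3 (938 to 1028.5 CPM) than Dixon's test allows, with a ratio of gap to range of 0.90, above the 95% limit for 4 samples. It was the only such value among 37 genes examined this way, and chance gives about 1 in 20. Gpx4 and Prdx6 were also highest in this mouse. So were Eef2 and Pde1b, but they were picked for their likeness to Gpx1, so that their peak follows from the choice. The next largest ratios, all below the limit, were 0.82 for Slc7a11 and 0.81 for Prdx6, both highest in I.P. mouse 1. Xdh, at 0.81, was highest in I.P. mouse 4. The library of I.P. mouse 1 was among those that stood apart, and whether its value is particular to Gpx1 was not tested.

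The routes differed at an unadjusted P under 0.05 (edgeR) for 7 of 37 named genes, of which 1 was a peroxide-removing enzyme, where 8.59% of all genes did. Most of the 37 were named for a small unadjusted P against DMSO, so that the share is no result about them. None of the 7 passed correction, with adjusted p values from 0.498 to 0.577. Gpx3 was lower in S.C. than in I.P. mice by a log2 difference of −0.64. Chac1 (−2.56), Sesn2 (−1.29) and Sepp1 (−0.57) were lower as well, each with both S.C. mice below all 4 I.P. mice. Gstz1 (1.05), a glutathione transferase of tyrosine breakdown, and Pex2 (0.69), a peroxisome import factor, were higher, with both S.C. mice above all I.P. mice. Scly (1.08), which frees selenium from selenocysteine, was above all I.P. mice in 1 of the 2 S.C. mice.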

How the results depend on the processing

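The tests were repeated with DESeq2 and the likelihood ratio test, with scaling by RLE or by library size only, with the filter dropped or set at 1 CPM in 2 mice, with the 3 groups fitted together, with a replicate block, and with each mouse left out. The GC and length offset, a crossed block and counts of list genes under each setting were added after the data were seen. At an adjusted p under 0.05, 0 of the 10 enzymes passed in any comparison under any of them, while over all genes the quasi-likelihood test as used in the report gave 0 and DESeq2 19 in I.P., 107 in S.C. and 234 in S.C. against I.P. mice (likelihood ratio test 10, 179 and 265). Other quasi-likelihood fits gave up to 2407 genes in S.C. mice (without S.C. mouse 2) and up to 138 in S.C. against I.P. mice.

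With library size only, the log2 fold change turned to −0.057 for Prdx1 in I.P. mice, to −0.021 for Gpx3 in S.C. mice, and to −0.0072, −0.052 and −0.040 for Prdx4, Prdx6 and Cat in S.C. against I.P. mice. There the GC and length offset gave Prdx6 −0.058. With the replicate block, Gpx1 was −0.072 and Prdx6 −0.21 in S.C. against I.P. mice.

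The number of genes called in I.P. mice was 243, 160 with all 3 groups in 1 fit and 116 to 361 with a mouse left out. In S.C. mice it was 591, and 113 to 3432 with a mouse left out. In S.C. against I.P. mice it was 860, and 632 to 2115 with a mouse left out. Where 1 mouse of a group was left, it was assumed to vary like the other group. The highest values came without S.C. mouse 2 (3432 and 2115), and the lowest without DMSO mouse 2 (113) and DMSO mouse 1 (116).

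With a mouse left out, 0 to 1 of the 10 enzymes were called in I.P. mice (Gpx3 without DMSO mouse 1), and 0 to 1 had an unadjusted P under 0.05 in I.P., S.C. and S.C. against I.P. mice. The median over the enzymes in S.C. mice was 0.020 to 0.37. It was 0.11 to 0.32 in I.P. mice. Log2 fold changes in I.P. mice were 0.19 to 0.65 for Gpx1, 0.29 to 0.76 for Gpx4, −0.22 to 0.30 for Prdx1 and −0.24 to 0.10 for Prdx2. In S.C. mice they were −0.086 to 0.36 for Gpx3, −0.13 to 0.51 for Gpx4, −0.075 to 0.36 for Prdx2, −0.27 to 0.027 for Prdx4 and −0.019 to 0.64 for Prdx5. In S.C. against I.P. mice they were −0.11 to 0.40 for Gpx1, −0.65 to 0.015 for Prdx3, −0.031 to 0.18 for Prdx4, −0.22 to 0.47 for Prdx5, −0.11 to 0.32 for Prdx6 and −0.098 to 0.28 for Cat.

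The labels do not state a pairing of mice by number. With the replicate block, 0 enzymes had an unadjusted P under 0.05 in I.P. mice (Gpx3 at a log2 fold change of 0.87) and 0 in S.C. against I.P. mice (Gpx3 at −0.73), and 389 genes were called in the latter. With the block crossed, 384 genes were called and 2 enzymes passed in I.P. mice, and 337 genes were called and 0 enzymes passed in S.C. against I.P. mice. Genes were called by both limits here, while enzymes passed at an unadjusted P under 0.05 alone. The share of all genes at that limit is not given for the block fits, so that these counts are no result about the enzymes. The causes were not tested. The 95% confidence intervals still held changes of over 2-fold for 4 of the 10 enzymes in I.P., 7 in S.C. and 4 in S.C. against I.P. mice.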
